A study of Mus musculus with 8 samples.

Results

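The pyramidal cell layer of the hippocampus is divided into the fields CA1, CA2 and CA3, and 9 genes commonly used as markers of these fields were described here in the hippocampus of young mice after repeated ketamine anesthesia. The genes were chosen by name as field markers: Wfs1, Fibcd1, Pou3f1 and Man1a for CA1, Amigo2, Rgs14 and Pcp4 for CA2, and Bok and Cdh24 for CA3. All 9 were found among the 20802 genes of the deposited table. CA3 neurons receive input from dentate granule cells through mossy fibers and project to CA1 through the Schaffer collaterals, and CA1 is the main output of the hippocampus proper. CA2 lies between them, is linked to social memory, and is known for its resistance to synaptic plasticity.

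Hippocampal RNA of 8 male C57BL/6 mice was sequenced at PND28, with 4 mice in each of 2 groups. The Anesthesia group had received ketamine at 35 mg per kg intraperitoneally once a day for 5 days from PND16, so that the last injection fell 8 days before PND28. The Control group had received normal saline in the same way, while the titles of the samples describe them as untreated. Each library was prepared from whole hippocampus, and the deposited values are read counts that the authors normalized between libraries, called normalized counts below. Their totals lay between 18702634 and 19231119 per mouse. Because of the normalization, these totals no longer show sequencing depth, which the spacing of low values places at approximately 15400000 reads in Control replicate 3 to 22200000 in Control replicate 2. Bulk RNA does not tell fewer cells of a field from less RNA per cell.

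Anesthesia replicate 3 stood apart from the other libraries in these genes, and main results are given with and without it. It held the lowest value of all 8 mice for 5 of the 9 field genes, namely Fibcd1, Pou3f1, Amigo2, Rgs14 and Bok. Over all genes tested, it was lowest in 21.0% and highest in 20.3%, against 8.83% to 15.0% lowest and 8.47% to 16.1% highest in the other 7 libraries. In the same library, Rorb, Foxp2 and Lamp5 of a neocortex list of 4 genes were at their highest. Foxp2 had 141.1 normalized counts there, against 133.6 in Control replicate 1, and Rorb 633.8, against 576.6 in Anesthesia replicate 1. Rspo1, the other gene, reached the mean of 10 needed for testing only through this library and is not counted here. The summed level of the 4 genes was 1639 normalized counts there. It was 883.4, 765.7 and 871.7 in Anesthesia replicates 1, 2 and 4 and 911.5, 869.2, 893.4 and 860 in Control replicates 1 to 4. Lamp5, the most abundant of the 4 per kilobase, had 827.8 normalized counts in Anesthesia replicate 3 and 198.8 to 289.9 in the others, and no neocortex gene was at 0 in any library. Whether tissue from outside the hippocampus had a part in the low values of the field genes was not tested.

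Levels were first compared between the field genes, per kilobase of merged annotated exons and over all 8 mice. Pcp4, which encodes a calmodulin regulator, had the highest level with 906 ± 111 normalized counts per kilobase (SD, n = 8). Bok followed with 573 ± 106 and Fibcd1 with 453 ± 75.5. Man1a (274 ± 33.3), Rgs14 (265 ± 55.5) and Wfs1 (259 ± 43.1) lay within 1 SD of each other. Amigo2 (169 ± 38.5), Pou3f1 (120 ± 23.4) and Cdh24 (37.2 ± 5.9) were lower, and each of the other neighbours in this order was separated by more than the SD of either gene. The level per kilobase spanned 24.4-fold from Cdh24 to Pcp4. Markers of the same field also differed, as in CA3 with 573 for Bok and 37.2 for Cdh24.

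The comparison of the Anesthesia group with the Control group asked whether the field genes differed 8 days after the last anesthesia. It was made with limma on log2(value + 1) over 18865 genes whose mean reached at least 10, with Benjamini-Hochberg adjustment over all of them, and fold changes, or fitted log2 differences, are given on this scale. All 9 field genes passed the filter. In limma, an adjusted p under 0.05 was reached by 0 of the 9 field genes and by 0 of the 18865 genes (0.0%). Without adjustment, 1 of the 9 field genes, Amigo2, was below 0.05, against 1513 of all genes (8.02%), and limma voom also found 0 genes past the adjusted threshold and 1468 at the unadjusted 0.05. For 0 of the 9 field genes were the groups separate, against 950 of all genes tested (5.04%). Without Anesthesia replicate 3, no field gene had an unadjusted p under 0.05, against 5.64% of the genes then tested. Of the 9 field genes, 6 were lower and 3 higher in the Anesthesia group, and of all genes tested 50.8% were lower.

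In CA1, Wfs1 had the only positive fold change of 4 genes. Wfs1 (ENSMUSG00000039474, chromosome 5, 36966104 to 36989205 on GRCm38) encodes wolframin, a membrane protein of the endoplasmic reticulum, and its protein labels CA1 pyramidal neurons. Its values were 859.1, 1073, 993.8 and 1242 normalized counts in Anesthesia replicates 1 to 4 and 861.8, 1155, 768.7 and 907.3 in Control replicates 1 to 4. The groups overlapped, with the highest value in Anesthesia replicate 4 and the lowest in Control replicate 3. Mean Wfs1 was 1042 ± 160 under Anesthesia and 923.2 ± 165 under Control (SD, n = 4 each), which gave a log2 fold change of 0.18 (SE, the standard error, 0.14, limma adjusted p = 0.736), and Anesthesia replicate 3 was not low for this gene. With each mouse left out in turn, the log2 fold change of Wfs1 lay between 0.089, without Anesthesia replicate 4, and 0.29, without Control replicate 2 (limma unadjusted p = 0.0397, adjusted p = 0.715).

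Fibcd1 (ENSMUSG00000026841, chromosome 2, 31813290 to 31846005) encodes a membrane receptor with a fibrinogen-like domain that binds acetylated sugars. It had 2130, 2331, 1291 and 2206 normalized counts in Anesthesia replicates 1 to 4 and 2412, 2340, 2227 and 2271 in Control replicates 1 to 4. The 4 Control mice were close together, and among the Anesthesia mice only replicate 3 was far below them. Its mean was 1989 ± 473 for Anesthesia and 2312 ± 81 for Control mice (SD, n = 4 each), with a log2 fold change of -0.25 (SE 0.16, limma adjusted p = 0.691). Without Anesthesia replicate 3 the Anesthesia mean was 2222 ± 101 and the log2 fold change was -0.058.

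Pou3f1 (ENSMUSG00000090125, chromosome 4, 124656807 to 124660655) encodes a POU-domain transcription factor. It had 450, 564.2, 381.7 and 386.8 normalized counts in Anesthesia replicates 1 to 4 and 387.3, 491.1, 412.6 and 620.5 in Control replicates 1 to 4. Values were spread over the same range in both groups, and Control replicate 4 was highest. Its fitted log2 difference was -0.094 (SE 0.17, limma adjusted p = 0.884), and 0.039 without Control replicate 4. Exons of Pou3f1 overlap those of the antisense gene Gm2164, and since the study's methods name a stranded kit and the labels another TruSeq kit, the values of Pou3f1 are uncertain to that extent.

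Man1a (ENSMUSG00000003746, chromosome 10, 53904785 to 54076609) encodes a Golgi mannosidase that trims N-linked glycans. It had 2555, 2715, 2295 and 2553 normalized counts in Anesthesia replicates 1 to 4 and 2145, 2828, 2918 and 3114 in Control replicates 1 to 4. Control replicate 1 was the lowest of all 8 mice, while the other 3 Control mice were above every Anesthesia mouse. Its fitted log2 difference was -0.11 (SE 0.11, limma adjusted p = 0.786). It was -0.23 without Control replicate 1 (limma unadjusted p = 0.0117, adjusted p = 0.649), -0.064 without Anesthesia replicate 3 and -0.046 without Control replicate 4. With the level of choroid plexus genes as a covariate, a fit described below, it was -0.0018. Man1a also shares exonic sequence with a gene on the opposite strand, Gm16998, so the same uncertainty holds.

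Taken per mouse, the CA1 genes were summarised as the mean of their log2 values relative to the Control mean. This level was -0.090, 0.13, -0.32 and 0.00064 in Anesthesia replicates 1 to 4 and -0.16, 0.12, -0.097 and 0.14 in Control replicates 1 to 4. Anesthesia replicate 3 was below all Control mice. The median log2 fold change of the 4 genes was -0.10, against -0.0036 over all genes tested, and it was -0.042 without Anesthesia replicate 3, -0.0031 without Control replicate 4 and -0.21 without Control replicate 1.

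Among the CA2 genes, Amigo2 had the largest difference of the 9 field genes. Amigo2 (ENSMUSG00000048218, chromosome 15, 97244125 to 97247287) encodes a leucine-rich repeat cell adhesion protein that is widely used to mark CA2. It had 525.5, 586.2, 279.1 and 453.9 normalized counts in Anesthesia replicates 1 to 4 and 628.5, 641, 628.5 and 527.9 in Control replicates 1 to 4. Anesthesia replicate 3 was lowest, and the groups overlapped only through Control replicate 4, which lay below Anesthesia replicate 2. Anesthesia mice had a mean of 461.2 ± 133 and Control mice one of 606.5 ± 52.7 (SD, n = 4 each). The fitted log2 difference was -0.44 (SE 0.20, 95% interval -0.88 to -0.011, limma unadjusted p = 0.0453, adjusted p = 0.622), which ranked 1353 by p among all genes tested.

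The size of this difference depended on Anesthesia replicate 3. Without it, the Anesthesia mean of Amigo2 was 521.8 ± 66.2 and the fitted log2 difference was -0.22 (SE 0.11, limma unadjusted p = 0.0675, adjusted p = 0.845). With each mouse left out in turn, the log2 fold change of Amigo2 lay between -0.58 and -0.22. It was negative in all 18 alternative settings, with an unadjusted p under 0.05 in 11 of them. Most of these 11 reused all the mice, so they are not separate tests. With a mouse left out, p was under 0.05 only without Anesthesia replicate 1, Anesthesia replicate 2 or Control replicate 4. In the other fits of this kind, the limma unadjusted p lay between 0.0675 and 0.0925. Exons of Amigo2 overlap those of Pced1b on the opposite strand, and reads of these genes cannot be told apart if the counting did not use strand.

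Rgs14 (ENSMUSG00000052087, chromosome 13, 55369732 to 55384687) encodes a regulator of G protein signaling that restrains synaptic plasticity in CA2 neurons. It had 1004, 1583, 755.7 and 990.9 normalized counts in Anesthesia replicates 1 to 4 and 1154, 1211, 1150 and 1136 in Control replicates 1 to 4. The Anesthesia mice lay on both sides of the Control mice, with replicate 2 above all of them and the other 3 below. The SD was 352 for Anesthesia and 33.2 for Control mice, and a difference in spread was not tested. The log2 fold change of Rgs14 was -0.15 (SE 0.18, limma adjusted p = 0.815). It was 0.0011 without Anesthesia replicate 3 and -0.35 without Anesthesia replicate 2 (limma unadjusted p = 0.00578, adjusted p = 0.5).

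Pcp4 (ENSMUSG00000090223, chromosome 16, 96467606 to 96525793) had 803.3, 929.6, 997.5 and 1011 normalized counts in Anesthesia replicates 1 to 4 and 980.8, 1030, 976.2 and 708.1 in Control replicates 1 to 4. It was the field gene in which Anesthesia replicate 3 was highest relative to the mean of the other Anesthesia mice, at 1.09-fold, against 0.535-fold for Amigo2 and 0.634-fold for Rgs14. The lowest value was that of Control replicate 4. The log2 fold change of Pcp4 was 0.027 (SE 0.12, limma adjusted p = 0.958), and its sign changed in 4 of the 18 alternative settings, with -0.095 without Control replicate 4. Igsf5 on the same strand shares exonic sequence with Pcp4, so reads could be split between them. This Igsf5 gene (ENSMUSG00000117081) is absent from the deposited table, which holds another gene under that symbol.

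The per-mouse level of the CA2 genes relative to the Control mean was -0.20, 0.14, -0.54 and -0.17 in Anesthesia replicates 1 to 4 and 0.049, 0.11, 0.045 and -0.20 in Control replicates 1 to 4. Control replicate 4 lay at the level of Anesthesia replicates 1 and 4. It was the lowest Control mouse for all 3 CA2 genes, though for Rgs14 only at 1136 normalized counts against 1150 in Control replicate 3. It was also the lowest Control mouse for 8 of the 10 dentate granule genes described below. The share of all genes for which it was the lowest Control mouse was not computed. The median log2 fold change was -0.15, and -0.0056 without Anesthesia replicate 3 and -0.35 without Anesthesia replicate 2.

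In CA3, the differences between groups were smaller than the spread between mice for both genes. Bok (ENSMUSG00000026278, chromosome 1, 93685660 to 93695764) encodes a member of the BCL2 family of cell death regulators. It had 1061, 1311, 788.5 and 952.6 normalized counts in Anesthesia replicates 1 to 4 and 1222, 797.1, 1200 and 1105 in Control replicates 1 to 4. The lowest values were those of Anesthesia replicate 3 and Control replicate 2. The log2 fold change of Bok was -0.076 (SE 0.17, limma adjusted p = 0.912), and 0.043 without Anesthesia replicate 3.

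Cdh24 (ENSMUSG00000059674, chromosome 14, 54631231 to 54641364) encodes a cadherin, a calcium-dependent adhesion protein. It had 123.4, 152.8, 109.1 and 140.8 normalized counts in Anesthesia replicates 1 to 4 and 119, 103.6, 162.1 and 128.5 in Control replicates 1 to 4. Control replicate 2 was the lowest mouse and Control replicate 3 the highest. The log2 fold change of Cdh24 was 0.043 (SE 0.16, limma adjusted p = 0.950), and its sign changed in 4 of the 18 alternative settings.

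**Figure D1:**
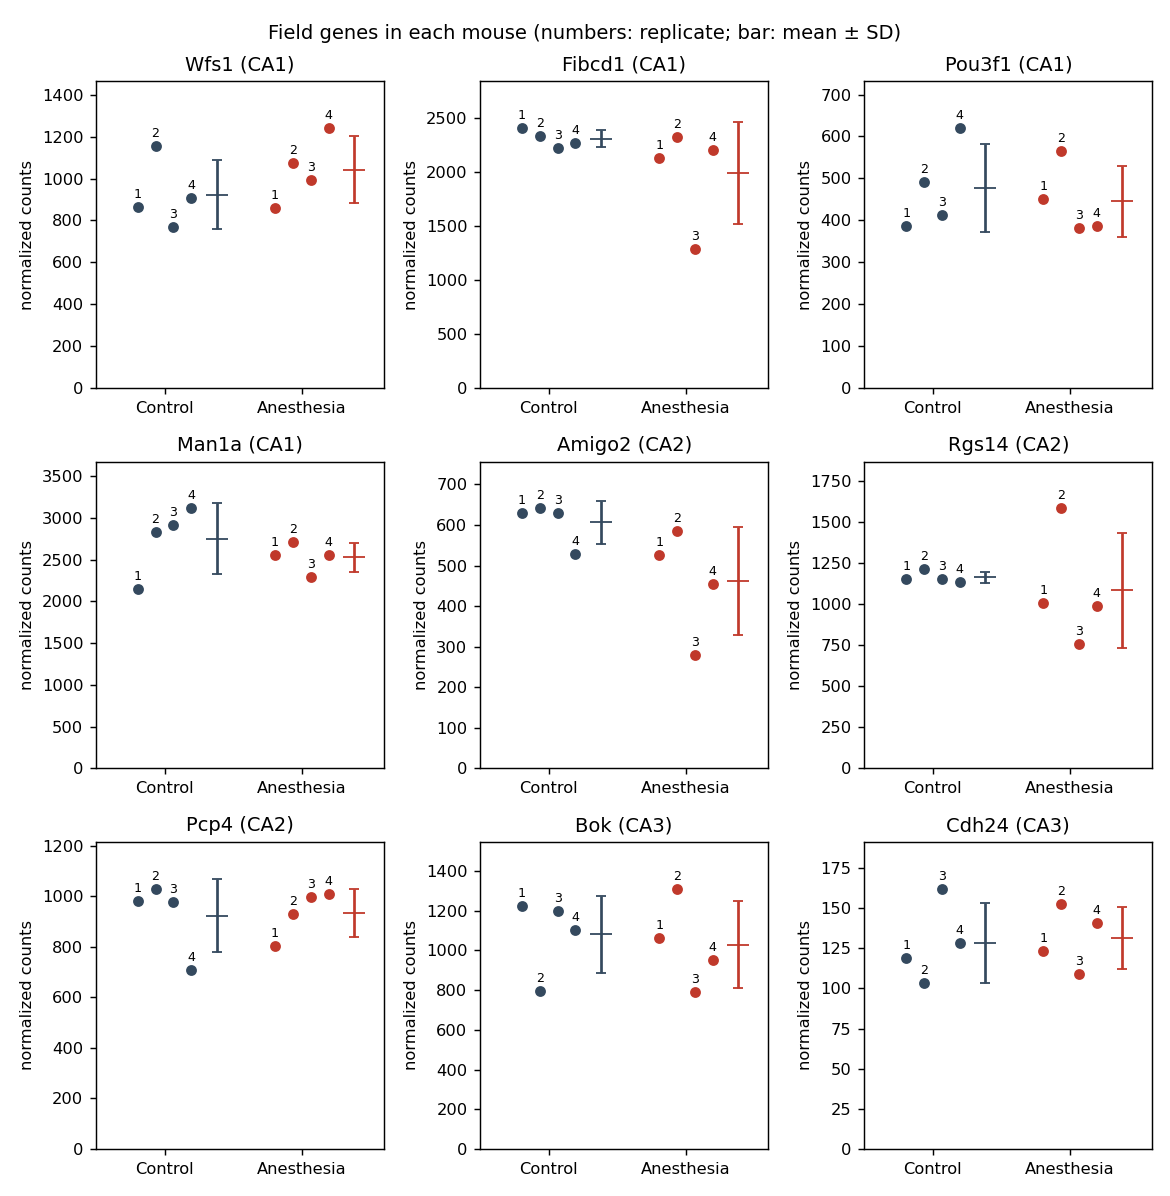
Normalized counts (vertical axes, from 0) of the 9 field genes in each mouse of the Control and Anesthesia groups, with replicate numbers beside the points and the mean ± SD of 4 mice as a bar. The groups overlap in all 9 genes, and Anesthesia replicate 3 is the lowest of the 8 mice in Fibcd1, Pou3f1, Amigo2, Rgs14 and Bok.

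**Figure D2:**
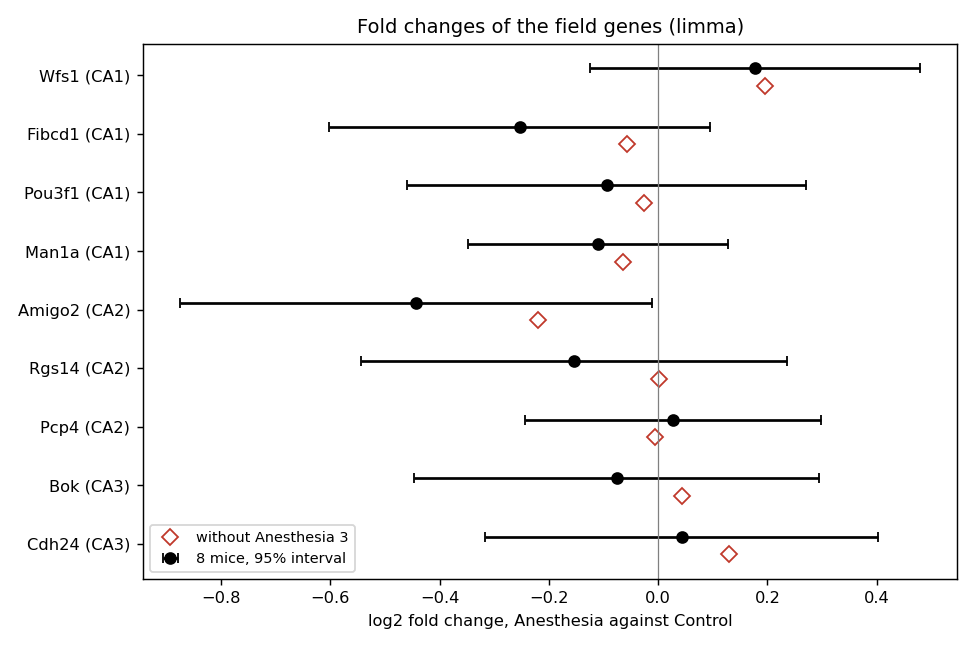
Log2 fold change of each field gene in the Anesthesia group against the Control group (horizontal axis), with the 95% interval from limma over 8 mice as bars and the value without Anesthesia replicate 3 as an open diamond. The interval of Amigo2 ends at -0.011, those of the other 8 genes cross 0, and without that mouse Amigo2 is at -0.22 and Fibcd1 at -0.058.

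The CA3 level per mouse was -0.021, 0.28, -0.32 and -0.0048 in Anesthesia replicates 1 to 4 and 0.054, -0.35, 0.26 and 0.036 in Control replicates 1 to 4. Control replicate 2 was thus as low as Anesthesia replicate 3. A list of 8 further CA3 genes held Grik4, Nectin3, Iyd, Coch, Csf2rb2, Cpne4, Elavl2 and Homer3, of which 7 were tested. The level of these 7 was -0.286 in Control replicate 2, against 0.116, 0.121 and 0.0491 in Control replicates 1, 3 and 4. Control replicate 2 was the lowest of all 8 mice for 1 of the further CA3 genes, against 9.8% of all genes tested. The median log2 fold change of the CA3 genes was -0.016, and 0.086 without Anesthesia replicate 3.

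Differences between fields within a library do not depend on how that library was scaled. The mean log2 value of the CA1 genes minus that of the CA3 genes was 1.73, 1.64, 1.81 and 1.8 in Anesthesia replicates 1 to 4 and 1.58, 2.27, 1.44 and 1.9 in Control replicates 1 to 4. The Anesthesia mice lay within the range of the Control mice, with 1.74 ± 0.0785 against 1.8 ± 0.369 (SD, n = 4 each). Anesthesia replicate 3, the lowest Anesthesia mouse in the level of each field, was not apart from its group by this measure. The difference between the group means was -0.053, and 0.10 without Control replicate 2. CA2 minus CA3 was 1.05 ± 0.0295 for Anesthesia and 1.23 ± 0.323 for Control mice, and CA1 minus CA2 was 0.691 ± 0.101 and 0.571 ± 0.245 (SD, n = 4 each). Single Control mice weighed on both differences. For CA2 minus CA3, Control replicate 2 was at 1.69, against 1.22, 1.01 and 0.992 in Control replicates 1, 3 and 4. For CA1 minus CA2, Control replicate 4 was at 0.91, against 0.361, 0.584 and 0.428 in Control replicates 1 to 3. In all 3 differences the larger spread was that of the Control group.

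**Figure D3:**
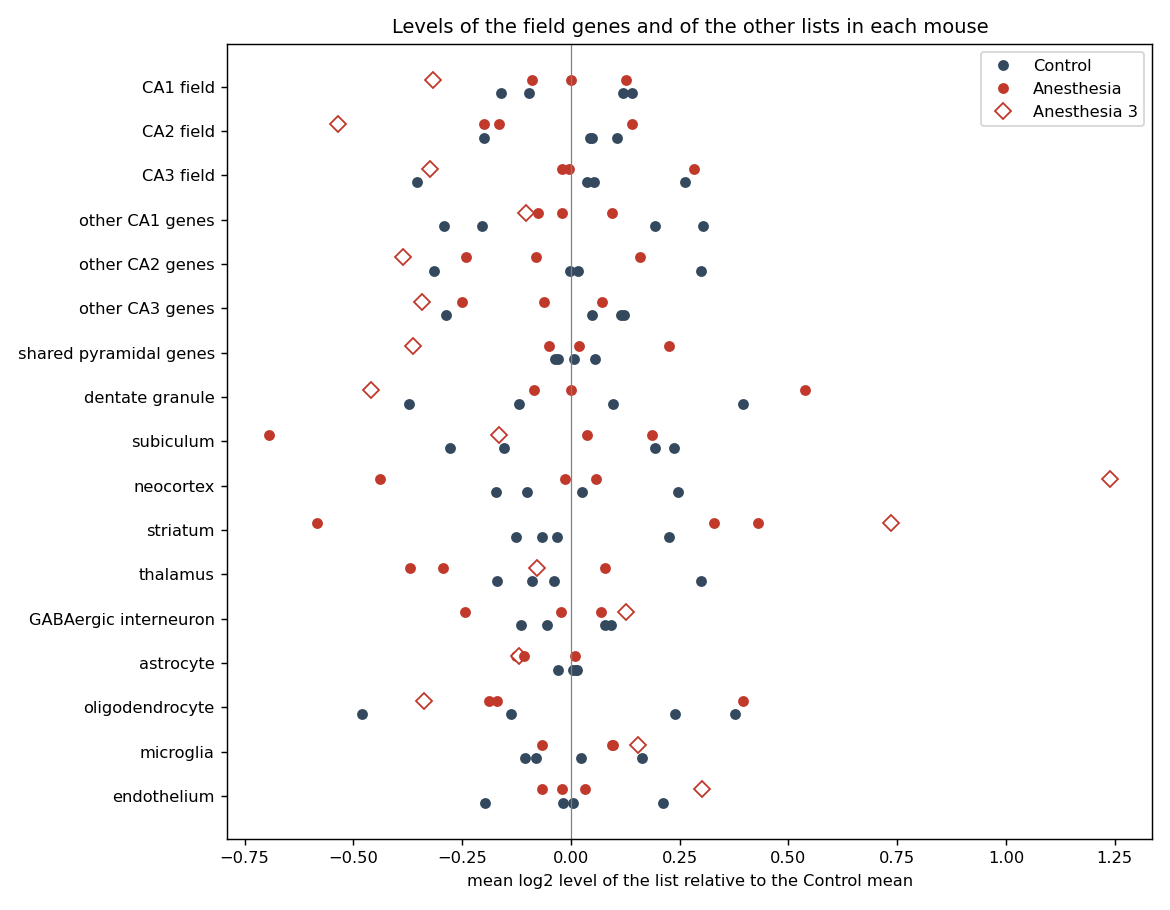
Mean log2 level of the genes of each list in each mouse relative to the Control mean (horizontal axis), with a point per mouse and an open diamond for Anesthesia replicate 3; the choroid plexus list is not drawn because of its wider range. Anesthesia replicate 3 is at -0.54 for the CA2 field and at 1.24 for the neocortex list, which includes Rspo1, a gene tested only because of this mouse.

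The field genes varied more between mice of a group than most genes did. Their median SD within groups was 0.281 on the log2 scale, against 0.192 over all genes tested and 0.137 over genes with a mean of at least 100. The SD of 8 of the 9 field genes was above the median of all genes, and Man1a was the exception. Without Anesthesia replicate 3 the median SD was 0.219 for the field genes, 0.179 for all genes tested and 0.126 for those with a mean of at least 100, and 6 of the 9 were above the median.

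Further genes of each field from lists gave no difference past the adjusted threshold. Of 6 further CA1 genes, 2 were higher and 4 lower after Anesthesia (median log2 fold change -0.064). Among them Ndst4, a heparan sulfate modifying enzyme gene, had the smallest p (log2 fold change -0.35, limma adjusted p = 0.736), and its lowest value, 457.5 normalized counts, was again that of Anesthesia replicate 3. Ccn3 was the most abundant per kilobase (904 normalized counts per kilobase) and had a log2 fold change of -0.018. Of 6 further CA2 genes found among 7 listed, 5 were lower, with a median of -0.17. Fgf2, a growth factor gene, had the smallest p of them, with 161.7 ± 19.4 normalized counts against 193.5 ± 28.2 (SD, n = 4 each; log2 fold change -0.25, limma adjusted p = 0.660). Necab2, a neuronal calcium-binding protein gene, was the most abundant and had a log2 fold change of -0.13. All 7 tested further CA3 genes were lower, with a median of -0.14, and Csf2rb2 was below the filter. Iyd (log2 fold change -0.32, limma adjusted p = 0.782) had the smallest p and Cpne4 (-0.17) the highest level per kilobase. None of these tested genes had an unadjusted p under 0.05, and Anesthesia replicate 3 was the lowest of all 8 mice in 3 of the CA1, 2 of the CA2 and 4 of the CA3 genes. When this mouse was left out, 3 of the 6 CA1, 1 of the 6 CA2 and 4 of the 7 CA3 genes were higher, with medians of -0.018, -0.063 and 0.027.

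Genes shared by pyramidal neurons did not all follow the same mice. Slc17a7, the vesicular glutamate transporter gene, had 9800, 9412, 10883 and 9199 normalized counts in Anesthesia replicates 1 to 4 and 8947, 9156, 7825 and 8895 in Control replicates 1 to 4. Every Anesthesia mouse was above every Control mouse, and Anesthesia replicate 3, low for most field genes, was highest here. Its fitted log2 difference was 0.17 (SE 0.070, limma unadjusted p = 0.0309, adjusted p = 0.620). The other 3 genes of this list, Neurod6, Ociad2 and Zbtb20, had negative fold changes and were lowest in Anesthesia replicate 3, and without it 2 of the 4 genes were higher. In the dentate granule list, 3 of 10 genes were higher and 7 lower, with a median log2 fold change of -0.046, and Anesthesia replicate 3 was lowest in 5 of the 10 and Control replicate 4 in the other 5. Without Anesthesia replicate 3, 8 of the 10 were higher, with a median of 0.16. Tdo2, with the smallest p in that list, had a log2 fold change of 0.33 (limma adjusted p = 0.739), and Calb1, the calbindin gene and the most abundant per kilobase, of -0.095. The dentate level per mouse was -0.084, 0.54, -0.46 and 0.00088 in Anesthesia replicates 1 to 4 and 0.40, -0.12, 0.097 and -0.37 in Control replicates 1 to 4. Anesthesia replicate 2, highest in the dentate list, was also the highest Anesthesia mouse in the levels of CA1, CA2 and CA3.

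Genes of the choroid plexus, which lies beside the hippocampus, differed widely between the 8 libraries. All 11 choroid plexus genes were lower after Anesthesia, their median log2 fold change being -1.88 and none past an unadjusted p of 0.05, and without Anesthesia replicate 3 the median was -0.93. Their summed level was 86745, 4923, 4546 and 9924 normalized counts in Anesthesia replicates 1 to 4 and 4292, 45875, 103531 and 101265 in Control replicates 1 to 4. Ttr, the transthyretin gene, was the most abundant, Otx2 had the smallest p (log2 fold change -1.88, limma adjusted p = 0.636), and Kcne2 was listed at 0 in Control replicate 1. With the level of this list as a covariate (added after the values were seen), the median log2 fold change was -0.0054 for CA1, -0.14 for CA2 and 0.015 for CA3. The part of choroid plexus tissue in the field genes was not tested beyond this fit.

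The remaining lists held genes of other regions and cell types of the hippocampus and its surroundings. Of 3 subiculum genes, 1 was higher (median log2 fold change -0.0038), with Nts at -0.48 having the smallest p and Fn1 at -0.0038 the highest level per kilobase. Of the 4 neocortex genes, 3 were higher (median 0.23), and Lamp5 was at 0.36. Rspo1, at 0.86, had the smallest p but passed the filter only through Anesthesia replicate 3. It had 35.92 normalized counts there and 3.4 to 9.913 in the other mice. Its fold change is therefore not read as a difference between groups. When that mouse was left out, 1 of the neocortex genes then tested was higher and 2 were lower (median -0.11). Without Anesthesia replicate 3 the mean level of the neocortex list in the Anesthesia group was -0.13 relative to the Control mean, against 0.21 with it. All 4 striatum genes were higher (median 0.23), with Adora2a at 0.40, and 3 of the 4 were highest in Anesthesia replicate 3. Without this mouse, 2 of them were higher and 2 lower. Of 7 thalamus genes found among 8 listed, 5 were lower (median -0.23). Tcf7l2 had the smallest p of them, with 36.84 ± 1.82 normalized counts against 56.31 ± 13.2 (SD, n = 4 each; limma unadjusted p = 0.0189, adjusted p = 0.620), and Rora, the most abundant, was at 0.22, with its highest value, 2396 normalized counts, in Anesthesia replicate 3.

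Of 7 GABAergic interneuron genes, 5 were lower (median -0.039). Gad1, which encodes a GABA-synthesizing enzyme, was at -0.14 (SE 0.062, limma unadjusted p = 0.0410, adjusted p = 0.622), and Sst, the somatostatin gene and the most abundant, at -0.047. Of 5 astrocyte genes, 4 were lower (median -0.11), and Slc1a3, a glutamate transporter gene with both the smallest p and the highest level per kilobase, was at -0.096 (limma adjusted p = 0.622). All 6 oligodendrocyte genes were lower (median -0.065), with Mog at -0.16. Of 5 microglia genes, 4 were higher (median 0.086), with P2ry12 at 0.16 and C1qa at -0.029. Of 4 endothelium genes, 3 were higher (median 0.067), and Cldn5, with both the smallest p and the highest level, was at 0.14. Without Anesthesia replicate 3 the median turned to 0.0205 for the oligodendrocyte and -0.026 for the endothelium genes, and it was 0.053 for the striatum and 0.018 for the microglia genes. Leaving out this mouse also gave medians of -0.11 for the thalamus, -0.14 for the subiculum, -0.075 for the GABAergic interneuron and -0.106 for the astrocyte genes, with 0 of the 3 subiculum genes then higher. No gene of any of these lists had an adjusted p under 0.05 in limma. Among them the astrocyte list had a small spread between mice, with an SD of 0.0642 for Anesthesia and 0.0203 for Control mice, against 0.277 and 0.135 for the CA2 genes.

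For each field, the 3 genes outside the field markers with the most similar pattern over the 8 mice were found by the smallest mean absolute difference between log2 deviations, among 12238 genes with a mean of at least 100. For CA1 these were Tipin (0.0458), a DNA replication gene, Heatr3 (0.0481) and Tmem138 (0.0523), a gene of primary cilia. For CA2 they were Plekha3 (0.0445), a Golgi phosphoinositide-binding protein gene, Ptbp3 (0.0460), a splicing factor gene, and Anp32a (0.0475). For CA3 they were Edem1 (0.0634), a gene of endoplasmic reticulum degradation, Mis12 (0.0651), a kinetochore gene, and Pwwp2b (0.0658). The median difference over all these genes was 0.162 for CA1, 0.196 for CA2 and 0.203 for CA3. None of the 9 genes is a marker of a field in the lists used here.

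The promoters of the field genes were read from RefSeq on build GRCm38.p6, where 7 of the 9 genes had a window of 250 bases before to 50 bases after the start. Pou3f1 and Rgs14 were the others. GC content was 83.3% for Amigo2, 74.3% for Fibcd1, 73.3% for Cdh24, 72.7% for Man1a, 70.0% for Wfs1, 56.3% for Bok and 48.7% for Pcp4, against a median of 52.7% over 32851 windows. The stretches before the starts of Man1a and Wfs1 overlap annotated exons of GENCODE, so they are not purely upstream sequence. The CA1 genes were close together, while the genes of CA2 and of CA3 differed, and Amigo2 exceeded 99.7% of all windows while Pcp4 exceeded 34.4%. Each window was searched on both strands for the POU octamer ATGCAAAT, the cAMP response element TGACGTCA and the NeuroD E-box CAGATG, which occurred in 1.74%, 1.79% and 17.2% of all windows. Only the E-box was found, in Wfs1 at position -170 and in Cdh24 at position -137 from the start, in Cdh24 as its reverse complement CATCTG. The match in Wfs1 lies within the annotated span of the gene. A match is a description of letters and not a binding site.

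The 250 bases before the start are shown 5′ to 3′ for Amigo2, the field gene with the smallest p, for Pcp4, the CA2 gene that was not low in Anesthesia replicate 3, for Fibcd1, and for Cdh24, in which capitals mark the E-box.
Amigo2, chr15:97247288-97247537, minus strand: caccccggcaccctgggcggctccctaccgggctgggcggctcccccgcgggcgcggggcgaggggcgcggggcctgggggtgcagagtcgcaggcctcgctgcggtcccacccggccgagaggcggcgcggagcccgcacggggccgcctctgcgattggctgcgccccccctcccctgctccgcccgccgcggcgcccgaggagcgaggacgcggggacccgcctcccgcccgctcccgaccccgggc
Pcp4, chr16:96467356-96467605, plus strand: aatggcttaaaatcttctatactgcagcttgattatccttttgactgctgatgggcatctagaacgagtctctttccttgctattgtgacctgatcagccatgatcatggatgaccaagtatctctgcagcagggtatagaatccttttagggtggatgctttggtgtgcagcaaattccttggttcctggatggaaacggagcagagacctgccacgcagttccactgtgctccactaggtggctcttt
Fibcd1, chr2:31846006-31846255, minus strand: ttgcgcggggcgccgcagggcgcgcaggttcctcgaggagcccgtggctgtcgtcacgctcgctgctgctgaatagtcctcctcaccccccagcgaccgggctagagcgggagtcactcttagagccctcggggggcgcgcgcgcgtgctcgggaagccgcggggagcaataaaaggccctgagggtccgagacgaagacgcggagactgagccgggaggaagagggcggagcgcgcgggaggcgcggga
Cdh24, chr14:54641365-54641614, minus strand: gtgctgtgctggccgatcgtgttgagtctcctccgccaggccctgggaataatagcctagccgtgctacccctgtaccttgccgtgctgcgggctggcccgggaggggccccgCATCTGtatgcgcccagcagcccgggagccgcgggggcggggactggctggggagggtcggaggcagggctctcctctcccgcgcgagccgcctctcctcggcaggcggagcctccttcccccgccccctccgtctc
The stretches of Amigo2 and Pcp4 belong to genes of the same field and to the extremes of GC content among the 7.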

How the data were processed

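Hippocampal RNA-sequencing values of 8 mice were used, 4 in each group. Per the labels and the study's methods, the authors quantified reads with Salmon v1.1.0 on GRCm38 with GC bias correction, summarised them per gene, and deposited counts normalized with DESeq2 v1.30.1, a normalized signal and not read counts. Since 45.9% to 68.3% of low values lay within 0.1 of a whole read, reads were not recovered.

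Symbols, positions and exon lengths came from GENCODE M21, which held 20784 of 20802 identifiers. Values were compared with limma (version 3.58.1 in R version 4.3.3) on log2(value + 1), letting the variance follow the mean, and genes with a mean under 10 were left out. The scripts were tested on simulated data. Figures were drawn with matplotlib 3.10.9. The field genes and the other lists were chosen with earlier results of these data known. From most other lists, the gene with the smallest unadjusted p and the most abundant per kilobase were named. Genes of the lists that were named for Anesthesia replicate 3 or for the CA3 genes were singled out after their values were seen.

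Alternatives were voom, other scalings, filters and pseudocount, GC content and length correction, the replicate number as a block, and each mouse left out.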

Additional observations from a re-analysis of the deposited data

Results flagged for a closer look

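On the log2 scale, 54 groups of 4 values were examined, 9 field genes and 18 list levels in each of the 2 groups. Of these, 5 held a mouse whose gap to its nearest neighbour was a large part of the group's range. At 1 in 20, chance would give 2.7. This share was 0.847 for Fibcd1 in Anesthesia replicate 3 (1291 normalized counts, against 2130 to 2331 in the other 3 Anesthesia mice). On the scale of normalized counts it was 0.807, below all 5 shares on the log2 scale, so the count of 5 holds for the log2 scale. In Control replicate 4 the log2 share was 0.898 for Amigo2 (527.9 normalized counts, against 628.5 to 641) and 0.857 for Pcp4 (708.1, against 976.2 to 1030), both CA2 genes. The level of the astrocyte list gave 0.862 in Anesthesia replicate 2 and 0.83 in Control replicate 1. Without Control replicate 4 the log2 fold change of Amigo2 was -0.51, and without Anesthesia replicate 3 that of Fibcd1 was -0.058.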

How the results depend on the processing

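The count of genes past the adjusted threshold was 0 under every setting except without Control replicate 1, so it ranged from 0 to 2 with each mouse left out. Those 2 genes, mt-Nd4l (listed at 0 in all Anesthesia mice and in Control replicate 1) and Gm10222 (at 0 in the other 3 Control mice), were named after their values were seen. An unadjusted p under 0.05 was found for 1513 genes, 1084 with the replicate block, 931 with GC content and length correction and the replicate block, 876 when the choroid plexus level was a covariate, and 1061 to 2024 with each mouse left out. Higher values after Anesthesia made up 59.3% of the 1513, against 65.5% with upper quartile scaling and 51.2% with scaling to the library total. The correlations of same-numbered mice were -0.242, -0.109, -0.182 and 0.0194. Differently numbered mice were not compared, so these values cannot decide whether replicate numbers pair the mice. The replicate block changed no call on a field gene.

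The median log2 fold change lay between -0.21 and -0.0031 for CA1, -0.35 and -0.0056 for CA2 and -0.13 and 0.086 for CA3 with each mouse left out, and CA1 minus CA3 between -0.17 and 0.10. The replicate block holds 1 mouse of each group per number, so it cannot change the main values (-0.10, -0.15, -0.016 and -0.053).

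No field gene passed the adjusted threshold in any setting. The log2 fold change of Amigo2, Fibcd1, Man1a and Wfs1 kept its sign in all 18 settings, although Man1a fell to -0.0018 with the choroid plexus covariate. With each mouse left out, Wfs1 lay between 0.089 and 0.29, Fibcd1 between -0.34 and -0.058, Man1a between -0.23 and -0.046, and Amigo2 between -0.58 and -0.22. Likewise Pou3f1 lay between -0.21 and 0.039, Rgs14 between -0.35 and 0.0011, Pcp4 between -0.095 and 0.098, Bok between -0.22 and 0.043, and Cdh24 between -0.052 and 0.16. Pcp4 was -0.064 with the choroid plexus covariate, and Cdh24 was -0.029 with GC content and length correction, with or without the replicate block. The cause of these sign changes was not tested. Counting error was not separated from the spread between mice and weighs most on Cdh24, the least abundant field gene.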
